A study of Mus musculus with 12 samples.

Results

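Surrogate light chain-positive B-cell progenitors of the neonatal mouse liver were taken as barcodes that carried at least 3 unique molecular identifiers (UMIs, counted RNA molecules) of Igll1 and Vpreb1 together and at least 1 of Cd79a and Cd79b. They carried none of the T-cell, myeloid, sinusoidal endothelial, macrophage and plasmacytoid dendritic markers Cd3e, Lyz2, Stab2, C1qa and Siglech. Of 207537 deposited barcodes, 202557 had 500 to 50000 UMIs with at most 20% of them mitochondrial, and 3693 of these were progenitors. The 6 control mice gave 308 to 419 progenitors each, 2147 in all, and the 6 anemic mice gave 80 to 448 each, 1546 in all. No progenitor barcode was excluded for being in or out of the cell cycle.

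Igll1 encodes lambda 5 and Vpreb1 encodes VpreB, which together form the surrogate light chain. In a developing B cell the surrogate light chain pairs with a newly rearranged immunoglobulin mu heavy chain and with the signalling chains Cd79a and Cd79b, so that a precursor receptor reaches the cell surface before any light chain gene has been rearranged. Signals from this receptor and from the interleukin-7 receptor drive a burst of division, after which the surrogate light chain genes are shut off and light chain recombination starts. Around birth the liver is still a site of this process, which later moves to the bone marrow.

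The study asked how phlebotomy-induced anemia (PIA) changes the immune cells of the neonatal liver. C57BL/6J pups of both sexes were bled from the facial vein, 20 µL per g body weight on each of P2, P4, P6, P8 and P10 (5 bleeds), and livers were collected on P11. Control pups of the same strain and age were handled in the same way and received a needle stick without blood removal. Each of the 12 livers gave 1 single-cell library, all of 1 batch by the labels, with no transgene or deletion in either group. Libraries held 46252146 to 74545930 UMIs and 13936 to 21008 barcodes within the limits, of which 1.84% to 15.8% were erythroid by globin and erythroid transcripts in control mice and 11.4% to 34.0% in anemic mice. Of 197684 distinct barcode sequences within the limits, 4791 occurred in at least 2 libraries, and 1 progenitor barcode did. Y-linked RNA of the progenitors stood at 204.5 to 280 CPM (counts per 1000000 UMIs of a population) in 2 of 6 control and 4 of 6 anemic mice and at 0 to 4.20 in the others, which sets the sexes unequally across the groups. The library of anemia 2 stood apart: 50.6% of its barcodes carried Lyz2, a marker used for exclusion, and it had the fewest candidate progenitors before any exclusion, 130 against 222 to 536 elsewhere. Of its candidates 29.2% carried Lyz2, against 4.05% to 12.2% elsewhere, and 80 remained after all exclusions.

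The 2 defining genes lie close together on chromosome 16 and on the same strand. In GENCODE M21 on GRCm38, Igll1 (ENSMUSG00000075370) spans chr16:16860671-16863985 and Vpreb1 (ENSMUSG00000059305) spans chr16:16868403-16870843, both on the minus strand. The 250 bases before the RefSeq start of each gene (GRCm38.p6) are shown because RNA of these genes defines the cells. The Vpreb1 window lies inside the longer GENCODE span of that gene, where it overlaps an exon of a non-coding Vpreb1 transcript. The windows are chr16:16863986-16864235 for Igll1 and chr16:16869256-16869505 for Vpreb1, written on the minus strand, with capitals marking matches on either strand to CCCNNGGG, the core letters bound by EBF1, and to CAGGTG, an E-box bound by E2A (Tcf3).
Igll1: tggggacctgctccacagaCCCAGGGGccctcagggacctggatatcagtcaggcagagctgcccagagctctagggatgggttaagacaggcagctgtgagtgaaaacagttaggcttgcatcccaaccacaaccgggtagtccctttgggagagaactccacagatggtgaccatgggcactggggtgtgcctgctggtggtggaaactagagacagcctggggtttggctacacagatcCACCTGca
Vpreb1: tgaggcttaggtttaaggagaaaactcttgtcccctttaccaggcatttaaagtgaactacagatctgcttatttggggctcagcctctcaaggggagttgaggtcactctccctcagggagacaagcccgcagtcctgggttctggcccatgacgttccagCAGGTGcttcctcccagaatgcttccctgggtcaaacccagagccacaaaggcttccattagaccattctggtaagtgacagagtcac
The Igll1 window held 1 match to CCCNNGGG, which began 231 bases before the start, and 1 match to CAGGTG, read as CACCTG, which began 8 bases before it. The Vpreb1 window held 1 match to CAGGTG, 88 bases before the start. Among 32851 RefSeq windows of the same length 11.8% held CCCNNGGG, 17.2% held CAGGTG and 2.43% held both, so such matches are frequent and describe letters only. Vpreb2, a near copy of Vpreb1 at chr16:17980428-17981273, was not used to choose the cells. The longest Vpreb1 and Vpreb2 transcripts were 97.8% identical over 686 aligned bases, so reads could be divided between them or lost.

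The levels of the genes that chose the cells are a description and were not tested. Progenitors held 30841 Igll1 UMIs and 10314 Vpreb1 UMIs. Igll1 stood at 1362, 1496 and 1760 CPM (lowest, median and highest control mouse) and at 1302, 1697 and 2141 in anemic mice. Vpreb1 stood at 416, 476 and 592 CPM in control mice and at 454, 560 and 847 in anemic mice, and for both genes the groups overlapped. In natural killer cells, which lack these genes and were chosen without Cd79 UMIs, the median mouse had 0.83 CPM of Igll1 and 0.53 of Vpreb1. Between 78.8% and 88.1% of the progenitors of a mouse carried both genes. The threshold cut through a continuous range: of barcodes that met the other criteria, 293 control and 210 anemia barcodes held 2 UMIs, just outside, while 201 and 156 held 3, just inside. Barcodes with 2 UMIs had a median of 226 CPM of Il7r and those with 3 UMIs had 205.

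The label of pro-B cells was checked against markers of that stage and of later ones. Each progenitor was thinned at random to 2000 UMIs, which left out 607 control and 433 anemia progenitors with fewer, so that shares of cells with a transcript could be compared between cells of unequal depth. Natural killer cells served as the background of free RNA, with 2071.5 to 4651 median UMIs per mouse against 2414.5 to 4275 in progenitors. They were chosen by Nkg7 and Klrb1c UMIs and for the lack of any Cd79a or Cd79b UMI. That choice can lower their shares of other B-cell genes, so the background may understate free RNA. The factors that commit cells to the B lineage were widespread: Ebf1 was seen in 96.4% to 100% of thinned progenitors (0.624% to 2.92% of natural killer cells) and Pax5 in 43.7% to 71.5% (0% to 0.357%). Dntt, the terminal transferase that adds bases at heavy chain junctions, was seen in 20.9% to 31.9% (0% to 0.335% of natural killer cells; 34.1% to 40.0% of progenitors without thinning). Kit, the stem cell factor receptor of early progenitors, was seen in 13.1% to 28.1% (0.804% to 2.89%; 19.7% to 35.6% without thinning).

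Markers of the next stage were also present. Ighm, the mu heavy chain, was seen in 80.8% to 92.0% of thinned progenitors (10.8% to 17.5% of natural killer cells; 83.3% to 93.6% without thinning). Igkc, the kappa light chain constant region, was seen in 18.98% to 25.5% (0.781% to 3.10%; 22.8% to 35.0% without thinning). Germline transcripts of either locus are counted with rearranged ones by these reads. Rag1, a subunit of the recombinase that joins receptor gene segments, was seen in 6.08% to 13.3% (0% to 0.182%). Ighd, of the later B-cell genes, was seen in 2.78% to 8.76% (0.260% to 0.668%; 7.16% to 16.25% without thinning). Progenitors were not chosen to lack Ighd, unlike the pre-B cells compared with them below. The rule therefore holds barcodes with markers of pro-B cells and barcodes with markers of the dividing large pre-B stage, and it does not separate them. Flt3, an earlier lymphoid progenitor receptor, reached a median of 5.71 CPM, and Cd34 gave 10 UMIs in all progenitors.

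The neighbouring populations of the same libraries were used for comparison. Progenitors were split into 1664 without any UMI of the proliferation genes Top2a and Mki67 and 1873 with at least 2. Resting Rag-positive pre-B cells (1755 barcodes) had at least 2 Cd79 UMIs, a Rag1 or Rag2 UMI and no Igll1, Vpreb1, Top2a, Mki67 or Ighd. Dividing pre-B cells without surrogate light chain (4759 barcodes) had at least 2 UMIs of Top2a and Mki67 and no Igll1, Vpreb1 or Ighd, and Ighd-positive B cells (1323 barcodes) stood at the far end. Depth differed between them: the median UMIs per cell of a mouse ran from 1639 to 2218 in non-dividing progenitors against 1159 to 1654 in resting pre-B cells, and from 4962 to 8273 in dividing progenitors against 2982.5 to 4078 in dividing pre-B cells.

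**Figure D1:**
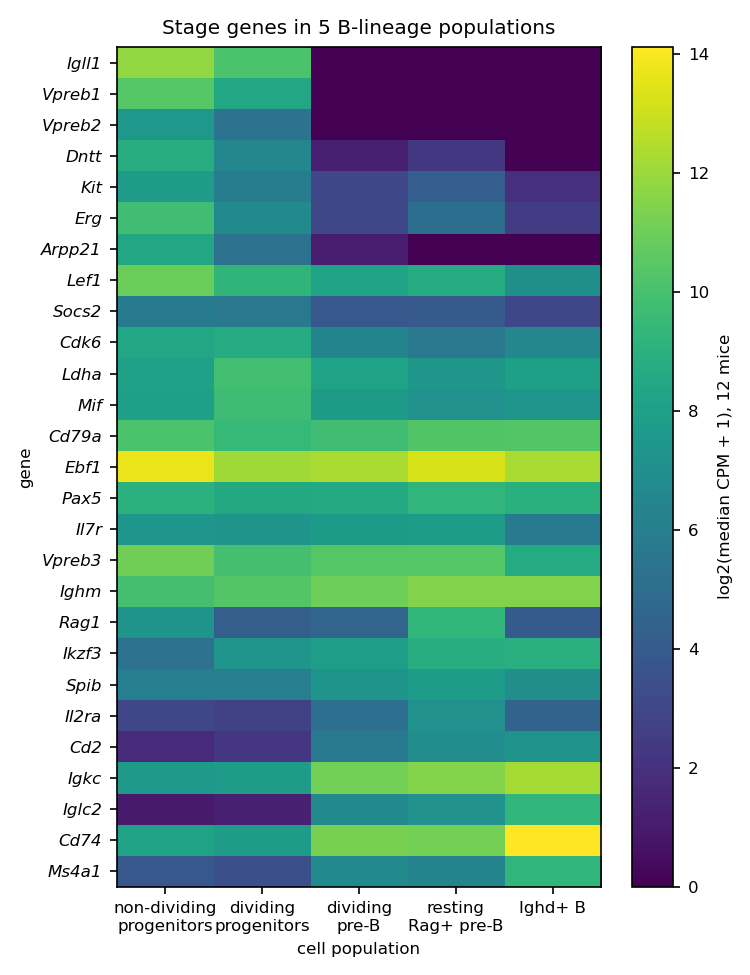
Heatmap of 27 genes (rows) in 5 populations (columns), coloured by log2 of the median CPM over 12 mice plus 1. Dntt, Kit and Erg are each brighter in the progenitor columns than in the later ones, while Igkc and Cd74 show the opposite.

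Dntt, Kit and Erg had their highest levels in non-dividing progenitors. Dntt stood at a median of 452 CPM in them, 90.9 in dividing progenitors, 3.87 in resting pre-B cells, 1.32 in dividing pre-B cells and 0 in Ighd-positive B cells. Kit followed the same order at 226, 62.8, 17.3, 7.12 and 2.84 CPM. Erg, an ETS family factor of stem and early progenitor cells, stood at 882, 102, 33.9, 7.36 and 4.39. These are medians over 12 mice of values that share each mouse's library, and the tested comparisons follow.

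Within the progenitors, cells with a Dntt UMI differed from cells without one. This split was chosen after the data were seen, and both sets were thinned to 2000 UMIs in a second random draw, with all genes of a cell drawn together, so that its shares differ from those drawn gene by gene above. Dividing cells, with a Top2a or Mki67 UMI, made up a median of 47.2% of the cells with Dntt and 77.7% of those without, lower in 12 of 12 mice. Erg was seen in 67.6% against 22.9%, Kit in 31.5% against 11.1% and Lef1, a Wnt pathway factor, in 91.8% against 65.1%, each higher in 12 of 12 mice. Igkc went the other way, at 6.37% against 26.7%, lower in 12 of 12. Each of these 5 differences had a two-sided exact sign-flip p of 0.000488, the smallest that 12 mice allow, and an adjusted p of 0.000793 over 13 measures. Ighm was seen in 76.1% against 86.7% (lower in 11 of 12, exact p = 0.000977, adjusted 0.00127) and Rag1 in 17.9% against 5.90% (higher in 10 of 12, exact p = 0.00244, adjusted 0.00289). Il7r, the interleukin-7 receptor chain, was seen in 25.1% against 27.7% (exact p = 0.280). Cells with Dntt were also shallower before thinning, at a median of 3406 UMIs against 6777. The rule was applied before thinning, so shallow cells needed a larger share of Igll1 and Vpreb1 RNA to meet it. Vpreb1 was seen in 84.3% of cells with Dntt against 46.0%, and the part of this choice in the differences was not tested.

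Against resting Rag-positive pre-B cells of the same mice, non-dividing progenitors had more Dntt, Erg and Kit RNA and less RNA of light chain and later B-cell genes, while the receptor and transcription factor lists moved in both directions. UMIs were summed per mouse and population and tested with edgeR's quasi-likelihood test with mouse as a term, at a Benjamini-Hochberg adjusted p under 0.05. Of 6406 genes tested 2857 passed (44.6%), 1404 of them higher in progenitors (21.9%) and 1453 lower (22.7%). Genes used to choose either population are not counted. The following levels are normalized CPM, scaled by edgeR's TMM factors, given as the median mouse with the lowest and highest. Without these factors the median change of all genes moved from 0.02 to 0.19 on the log2 scale and the calls became 2126 higher and 1003 lower, 67.9% higher against 49.1%.

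Genes of early B-cell progenitors were among those that were higher. Dntt stood at 514 (400 to 785) in progenitors and 5.00 (0 to 174) in resting pre-B cells, where anemia 3 alone gave the highest value, a log2 difference of 4.83 ± 0.29 (SE; adjusted p = 1.14e-15, edgeR). Erg stood at 1021 (824 to 1139) against 43.9 (22.3 to 79.8), a difference of 4.58 ± 0.11 (adjusted p = 1.62e-25, edgeR). For neither gene did the populations overlap. Kit stood at 264 (178 to 395) against 21.1 (0 to 50.8), a difference of 3.68 on the log2 scale. Arpp21, which encodes an RNA-binding phosphoprotein, stood at 400 (265 to 824) against 0 (0 to 21.8), a difference of 6.96. Speer2 stood at 93.3 (21.0 to 165) in progenitors and was listed at 0 in all 12 sums of resting pre-B cells, and Vpreb2 gave 2 UMIs there in all. Mmrn1 (multimerin, log2 difference 5.93), Tnfsf10 (the death ligand TRAIL, 5.20), Kcnn4 (a calcium-activated potassium channel, 4.70) and Fcrl6 (4.66) were higher as well, each in 12 of 12 mice.

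Light chain and late genes were lower. Igkc stood at 216 (116 to 644) against 3713 (2592 to 4277), a log2 difference of -3.94 ± 0.15 (adjusted p = 4.56e-21, edgeR). Cd2, an adhesion receptor gained at the small pre-B stage, stood at 2.49 (0 to 38.6) against 153 (120 to 189), a difference of -5.06. Il2ra, the interleukin-2 receptor chain CD25 that marks pre-B cells, stood at 7.99 (0 to 17.5) against 181 (137 to 259), a difference of -4.55. In all 3 genes every mouse had the lower value in progenitors. Agbl1 (-4.55), Rbm24 (-4.75) and Smoc1 (-4.47) were among the largest decreases, with the lambda constant genes Iglc1 (-4.61), Iglc2 (-5.21) and Iglc3 (-4.57).

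The fixed lists are read beside the shares over all genes, 21.9% higher and 22.7% lower. Of 15 tested genes of the interleukin-7 receptor, early receptor and homing list, 4 were higher (Kit, Socs2, Itga4 and Crlf2) and 6 lower (Cd2, Il2ra, Cxcr4, Pim1, Il7r and Cd24a). The share that was higher (26.7%) was near that over all genes. The median log2 change was -0.11, beside 0.02 over all genes, and turned to 0.07 without TMM factors. Il7r itself stood at 194 (143 to 343) against 275 (180 to 377), lower in 11 of 12 mice by 0.55 on the log2 scale. Of 19 B-lineage transcription factors, 8 were higher and 11 lower, with a median of -0.38. Lef1 (2.10), Mef2c (1.14), Bcl11a (0.81) and Ebf1 (0.29) were among the higher ones, and Ikzf3 (-3.72), Spib (-1.94), Irf4 (-0.93), Foxo1 (-0.41) and Pax5 (-0.38) among the lower ones. Ikzf3 encodes Aiolos, Spib an ETS factor of B cells, and Irf4 a factor of light chain loci.

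Receptor components divided. Of 11 tested genes of the precursor receptor list, 3 were higher, among them Vpreb3 (log2 difference 0.54), and 8 were lower with a median of -0.53 for the list. Vpreb2 is counted among the higher ones in this comparison and the next, but pre-B cells were chosen to lack its near copy Vpreb1, so its value is fixed in part by that choice. The lower ones were the kinases Blk (-2.57), Syk (-1.59), Lyn and Btk, the adaptors Blnk (-0.53) and Bank1, the phospholipase Plcg2, and Ighm (-1.58). Beside 21.9% higher and 22.7% lower over all genes, of 8 tested recombination genes 3 were higher (Dntt, Hmgb1 and Hmgb2) and 1 lower (Dclre1c, the nuclease Artemis), with a median of 0.20. None of 11 later B-cell genes was higher and 9 were lower, with a median of -3.02. Although both populations lacked Top2a and Mki67, 14 of 20 S phase genes were higher and 1 lower, median 1.35, among them Cdk6 (2.53), Rrm2 (1.87), Mcm2 (1.64) and Pcna (0.60). Of 22 hypoxia and glycolysis genes 12 were higher, with Hk1 (1.71), Pdk1 (1.57) and Pkm (0.83), and 4 lower (18.2%, near the share over all genes), median 0.40. Hepatocyte markers were lower in 10 of 10 genes (median -0.93) and erythroid markers in 6 of 8 (median -0.73), and the part of free RNA and of unequal depth in this comparison was not tested.

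In the dividing state the same kind of comparison called more genes. Of 10352 genes tested between dividing progenitors and dividing pre-B cells without surrogate light chain, 6575 passed (63.5%), 3291 of them higher in progenitors (31.8%) and 3284 lower (31.7%). Without TMM factors the calls were 3724 higher and 2903 lower. Dntt stood at 115 (80.4 to 179) normalized CPM against 1.60 (0 to 22.4), a log2 difference of 4.85 ± 0.24 (adjusted p = 1.58e-16, edgeR). Erg stood at 124 (88.7 to 263) against 8.79 (2.92 to 15.3), a difference of 3.98, and Kit at 79.9 (52.8 to 141) against 8.50 (1.39 to 26.6), a difference of 3.12. In each gene all 12 mice had the higher value in progenitors. Arpp21 (4.82), Ighg2b (the gamma-2b heavy chain constant gene, 4.81), Crhbp (4.18), Ttll11 (4.00) and Colq (4.00) were also higher in 12 of 12 mice. Ighg2b was low in absolute terms, at 14.9 (6.28 to 26.9) against 0 (0 to 1.90).

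Several glycolytic enzymes were higher in dividing progenitors than in dividing pre-B cells. Ldha, lactate dehydrogenase, stood at 1126 (857 to 1568) normalized CPM against 329 (258 to 527), a log2 difference of 1.70 ± 0.07 (adjusted p = 1.14e-17, edgeR). Mif, a cytokine gene also induced by hypoxia, stood at 1034 (879 to 1220) against 242 (171 to 442), a difference of 2.03 ± 0.08 (adjusted p = 3.49e-19, edgeR). In both genes the lowest progenitor value exceeded the highest pre-B value. Pkm, pyruvate kinase, differed by 1.48 and Pdk1, which restrains pyruvate use by mitochondria, by 1.70. Of 27 tested genes of the hypoxia and glycolysis list 16 were higher (59.3%, beside 31.8% of all genes), 7 were not called, among them Hk2 and Pfkp, and the 4 lower ones were Ankrd37, Kdm3a, Ddit4 and Bnip3. The list's median was 0.74, against 0.00 over all genes.

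Cell cycle genes differed by phase. Of 28 S phase genes 20 were higher in dividing progenitors (71.4%, beside 31.8% of all genes) and 4 lower, with a median log2 change of 0.32. Cdk6 stood at 504 (444 to 757) against 96.4 (64.3 to 200), a difference of 2.37, and Ccnd3, the cyclin D3 needed by dividing pre-B cells, at 1131 (914 to 1456) against 626 (438 to 917), a difference of 0.88. The 4 lower ones were Rrm2 (-0.62), Slbp, Ccne1 and Ccne2. Of 22 tested G2 and mitosis genes 2 were higher (Ccnb1, 0.42, and Plk1) and 15 lower (68.2%, beside 31.7% of all genes), with a median of -0.24. Since both populations were chosen on Top2a and Mki67, these genes and their neighbours in the cycle are not independent of the choice.

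Survival genes divided, and stress genes were mostly lower. Of 16 tested survival and p53 genes 9 were lower, among them Bcl2a1b (-2.71), Bcl2 (-1.22) and Bcl2l1 (-1.14), which restrain apoptosis, and Pmaip1 (-1.80), Bbc3 (-1.01) and Bcl2l11 (-0.51), which promote it. The other 7 were higher, among them the apoptosis effectors Bax (0.90) and Bak1, so that both directions exceeded the shares over all genes (31.7% lower and 31.8% higher). Of 16 immediate early and stress genes 12 were lower (75%, Fos by a log2 difference of -1.85) and 3 higher, and of 13 glucocorticoid response genes 10 were lower (76.9%, with Btg2 -1.71, Tsc22d3 -1.59) and 2 higher. Pim1, a kinase gene downstream of the interleukin-7 receptor, stood at 418 (323 to 658) against 1494 (942 to 1873), a difference of -1.80. Il7r stood at 200 (166 to 267) against 241 (186 to 448), lower by 0.31 in 11 of 12 mice. Mycn (-2.17), Foxo1 (-0.83), Spib (-1.16) and Ighm (-0.66) were lower too, while Hmga2, a chromatin gene held low by let-7 after fetal life, was higher by 2.67, at 23.6 (12.7 to 33.6) against 1.11 (0 to 24.7). Of the 6 tested genes of its fetal-type list 2 were higher (Hmga2 and Hmga1) and 3 lower (Igf2, H19 and Arid3a), median -0.18. Lin28b, which blocks let-7, gave 38 UMIs in all progenitors.

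Later B-cell genes were mostly lower, and other lists were mixed. Of 16 tested later B-cell genes 14 were lower and 2 higher (one of them Cd22, 1.43), with a median of -3.19. Fcmr, the receptor for IgM, differed by -4.20, Cd74, the invariant chain of class II molecules, by -3.53, Ms4a1 (CD20) by -3.23, Igkc by -3.23 and Bhlhe41 by -3.52. Among 11 tested precursor receptor genes 8 were lower, median -0.32, and among 22 interleukin-7 receptor, early receptor and homing genes 8 were higher and 9 lower, median -0.15. The last list, with 36.4% higher and 40.9% lower, was near the shares over all genes (31.8% and 31.7%). Recombination genes, also near them, gave 3 higher and 4 lower of 10, median -0.01 (0.06 without TMM factors), and iron, heme and metallothionein genes 4 higher and 5 lower of 15, median 0.09. Vpreb3, higher in the non-dividing comparison, was lower here by 0.32 in 11 of 12 mice. Hepatocyte markers were lower in 10 of 10 genes and erythroid markers in 8 of 9 (medians -0.92 and -1.13).

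**Figure D2:**
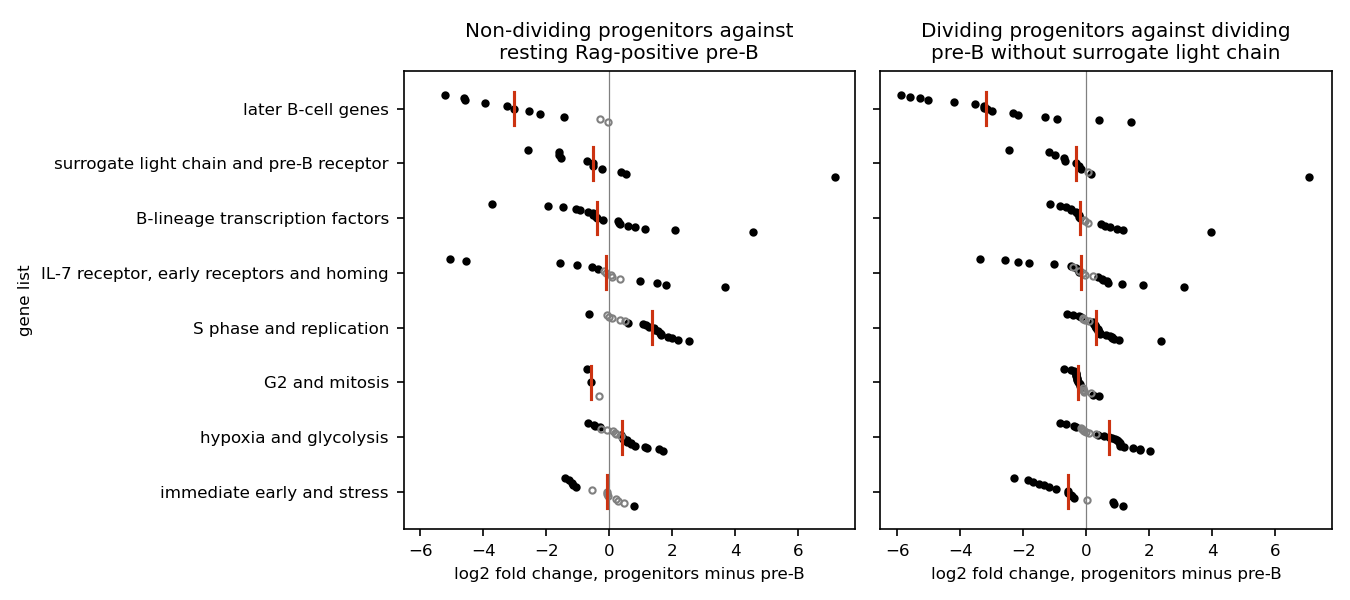
Log2 difference of every tested gene of 8 fixed lists (progenitors minus comparison population) for non-dividing progenitors against resting Rag-positive pre-B cells and dividing progenitors against dividing pre-B cells. Filled points passed an adjusted p of 0.05, open points did not, and red bars mark list medians, which are lowest for later B-cell genes (-3.02 and -3.19).

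The share of progenitors among the barcodes was lower in anemic mice before correction. Progenitors made up 1.73%, 2.32% and 2.69% of all barcodes within the limits (lowest, median and highest control mouse) and 0.453%, 1.46% and 2.13% in anemic mice, and the control range held 2 of the 6 anemic mice, the other 4 being lower. The means were 2.25% ± 0.326 (SD, n = 6) and 1.44% ± 0.637 (SD, n = 6), a ratio of 0.64 with a two-sided exact Mann-Whitney p of 0.0152. Adjusted over the 5 values tested per mouse, p was 0.0758 and did not pass. Barcodes with fewer than 2000 UMIs were then left out and the others thinned to 2000 UMIs before applying the rule. The difference was -0.461 percentage points there (exact Mann-Whitney p = 0.180), against -0.81 over all barcodes within the limits. These values differ in the barcodes they cover as well as in depth. In dissociated tissue fewer cells of a type and less RNA per cell cannot be told apart from such shares where a UMI threshold defines the cells.

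With other denominators the groups overlapped. Among non-erythroid barcodes the share was 2.02%, 2.47% and 2.74% in control mice and 0.498%, 1.87% and 2.77% in anemic mice, with 3 anemic mice below and 2 above all controls (exact p = 0.589, adjusted 0.981). Among B-lineage barcodes, those with at least 2 Cd79 UMIs and none of the exclusion markers, it was 8.93%, 9.60% and 10.7% in control mice and 4.59%, 9.60% and 13.1% in anemic mice (exact p = 0.937, adjusted 1). The anemic mice spread on both sides of the controls, with 2 below and 2 above. The percentage of thinned progenitors in division was 65.5%, 69.5% and 74.5% in control mice and 59.2%, 63.7% and 71.8% in anemic mice (exact p = 0.0931, adjusted 0.233). The median UMIs per progenitor were 2828, 3866.5 and 4151 in control mice and 2414.5, 3768.25 and 4275 in anemic mice (exact p = 1).

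The progenitors were then set against the next dividing stage, in 6 ratios chosen after the data were seen and adjusted together. Progenitors with at least 2 Cd79 UMIs were counted for every 100 dividing pre-B cells without surrogate light chain. There were 56.0, 63.9 and 74.3 in control mice and 64.5, 87.4 and 142 in anemic mice. The mean ratio was 1.43 times the control value, 4 of 6 anemic mice lay above every control, and the exact Mann-Whitney p was 0.0260 (adjusted 0.0390). As a share of B-lineage barcodes the mean of the same progenitors was 1.00 times the control value, and that of dividing pre-B cells 0.70 times. The ratio is therefore not independent of the dividing pre-B share given below and does not show more progenitors. Leaving out 1 mouse at a time gave p from 0.00866 to 0.0519, over 0.05 in 7 of 12 cases. The share of B-lineage barcodes among non-erythroid ones was 21.2%, 23.3% and 26.6% in control mice and 9.67%, 18.6% and 20.6% in anemic mice, without overlap (exact p = 0.00216, the smallest 6 against 6 mice allow, adjusted 0.00649). The share of dividing pre-B cells among B-lineage barcodes was 13.8%, 14.6% and 17.4% against 7.11%, 11.0% and 13.2%, also without overlap (exact p = 0.00216, adjusted 0.00649). Resting pre-B cells with a Rag1 or Rag2 UMI made up 4.55%, 5.40% and 6.58% against 2.58%, 3.97% and 6.13% (exact p = 0.132, adjusted 0.158). Ighd-positive B cells made up 2.24%, 2.58% and 3.72% against 3.65%, 5.12% and 8.48% (exact p = 0.00866, adjusted 0.0173). The named stages do not cover all B-lineage barcodes, and the shares of these later stages were not repeated after thinning. The percentage of thinned progenitors with a Dntt UMI, in the second draw, was 23.2%, 24.9% and 30.2% in control mice and 23.3%, 25.7% and 30.2% in anemic mice (exact p = 1).

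**Figure D3:**
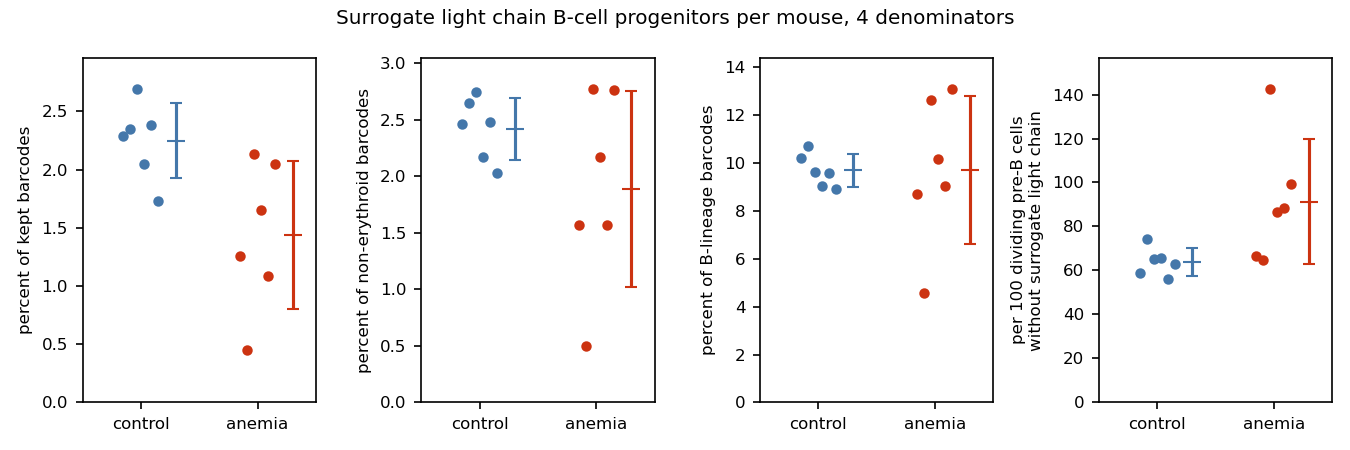
Each point is 1 mouse (6 control, 6 anemia) with the mean and SD per group. Panels show progenitors as a percentage of all barcodes within the limits, of non-erythroid barcodes and of B-lineage barcodes. The last panel shows progenitors with at least 2 Cd79 UMIs per 100 dividing pre-B cells without surrogate light chain. The anemic mice lie lower in the first panel (means 2.25% and 1.44%), spread around the controls in the middle panels and reach 142 in the last.

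Few genes of the progenitors passed the test between anemic and control mice. Of 10595 genes tested over the summed UMIs of each mouse, 11 passed an adjusted p of 0.05 (0.104%), 9 of them higher in anemic mice (0.0849%) and 2 lower (0.0189%), and 1171 had an unadjusted p under 0.05. With 1 mouse left out the count was 25 without anemia 6, 22 without control 2 and 17 without anemia 2, but 7 without control 4, 6 without anemia 5 and 4 without control 6. With Y-linked expression as a covariate 11 genes passed and 9 of them were among the 11, Gm11808 being one of those lost. In 59 genes (0.557%) the control and anemic mice did not overlap. Of the 11 called genes, Fabp4, Fech, Cyp2e1 and Gm11808 were without overlap.

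Fabp4, a fatty acid binding protein of endothelium, macrophages and fat, had the smallest p. It stood at 22.2, 24.5 and 34.9 normalized CPM in control progenitors and at 41.5, 71.6 and 113 in anemic ones, a log2 difference of 1.54 ± 0.17 (adjusted p = 1.21e-04, edgeR). Every anemic mouse was above every control. In all other barcodes Fabp4 stood at 1090 to 1480 CPM in control mice and at 1726 to 3493 in anemic mice, again without overlap. Its part in the progenitor values as free RNA was not tested.

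Heme and red cell genes were among the others. Alas2, the first enzyme of erythroid heme synthesis, stood at 4.51, 13.5 and 23.8 normalized CPM in control mice and at 23.4, 62.9 and 89.2 in anemic mice, a log2 difference of 2.22 ± 0.31 (adjusted p = 0.00252, edgeR). Fech, which inserts iron into heme, stood at 23.2, 24.6 and 27.1 against 38.3, 46.7 and 59.2, a difference of 0.92 ± 0.13 (adjusted p = 0.00310, edgeR). The anemic mice were all above the controls for Fech and overlapped them at 1 end for Alas2. Hbb-bt, an adult beta globin gene, was also higher, by 2.06. Of the 10 fixed erythroid markers 9 could be tested, 4 rose and the median was 2.06. The summed level of the 10 erythroid markers in progenitors was 498 to 5204 CPM in control mice and 5682 to 15930 in anemic mice, with no marker at 0 in every mouse, and in the other barcodes it was 4667 to 44002 against 35698 to 146796. When barcodes with a UMI of further markers of other cell types, among them Alas2, Klf1, Nkg7, Klrb1c, Elane, Mpo, S100a8 and Kdr, were also left out, the log2 difference was 0.43 for Fech, 1.06 for Hbb-bt and 0.18 for Tent5c, and none of the 3 passed. Fabp4 (1.43), Bnip3 (1.00), Apoc3 (1.76), Cyp2e1 (-1.72) and Gm11808 (-0.70) passed there as well. With 1 mouse left out in turn the call was lost in 8 of 12 cases for Gm11808, 7 for Apoc3, 5 for Hbb-bt and Tent5c, and 1 for Cyp2e1, and in none for Fabp4, Alas2, Fech and Bnip3. The part of erythroid RNA in the other called genes was not tested.

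The other called genes came from different lists. Bnip3, a mitophagy receptor induced by low oxygen, stood at 26.9, 31.5 and 40.8 normalized CPM in control progenitors and at 34.6, 61.4 and 76.1 in anemic ones, a log2 difference of 0.91 ± 0.15 (adjusted p = 0.0109, edgeR). In dividing pre-B cells it ran from 23.1 to 41.8 CPM in control mice and from 38.4 to 93.8 in anemic mice, and in all other barcodes from 43.5 to 55.2 and from 68.3 to 149. Tent5c, a poly(A) polymerase, rose by 1.54 and Apoc3, an apolipoprotein of hepatocytes, by 1.75. In all other barcodes Tent5c stood at 27.1 to 71.6 CPM in control mice and at 64.5 to 169 in anemic mice, and Apoc3 at 60.8 to 104 against 141 to 500, the latter without overlap. Cyp2e1, a hepatocyte cytochrome, stood at 18.3, 27.6 and 30.3 against 0, 8.41 and 14.5, a difference of -1.61 ± 0.27 (adjusted p = 0.0118, edgeR). It was lower without overlap in the other barcodes too, at 82.9 to 125 against 7.63 to 61.1 CPM. The summed hepatocyte markers were 1950 to 3098 CPM in control progenitors and 534 to 2985 in anemic ones, with 8 of 10 markers at an unadjusted p under 0.05 and 1 called. Gm11808, a predicted gene at chr4:3973092-3973595, stood at 289, 341 and 534 against 233, 243 and 255, a difference of -0.60 ± 0.12 (adjusted p = 0.0348, edgeR). It was lower without overlap in the other barcodes as well, at 147 to 253 against 106 to 146 CPM.

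**Figure D4:**
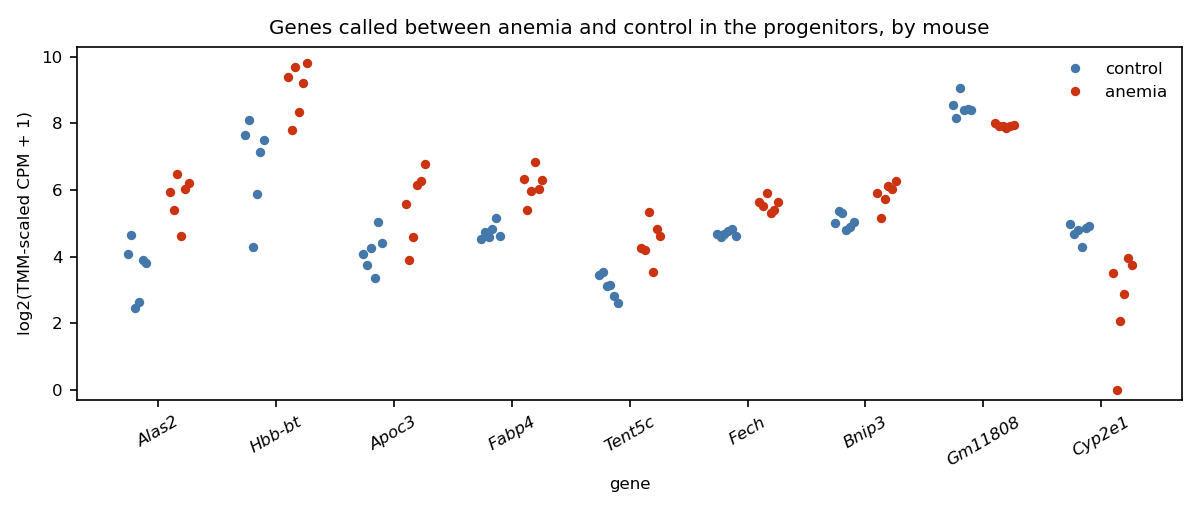
Log2 of normalized CPM plus 1 in the progenitors of each mouse for 9 of the 11 genes that passed the test, 6 control and 6 anemic mice. The groups separate fully for Fabp4, Fech, Cyp2e1 and Gm11808 and overlap for the other 5.

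Over all genes 0.104% passed the test between anemic and control mice and 11.1% had an unadjusted p under 0.05, and against these shares the counts of 0 in the following lists say little. DESeq2 gave no adjusted p for some genes, which it therefore could not call. They were 3 of 11 in the precursor receptor list, 3 of 19 transcription factors, 8 of 12 recombination genes and 16 of 22 in the interleukin-7 receptor list. In the precursor receptor list 0 of 11 genes passed with edgeR and 0 with DESeq2, 1 had an unadjusted p under 0.05, and the median log2 change was 0.06. Of 19 transcription factors edgeR called 0, with 5 under an unadjusted 0.05, and DESeq2 called 1, at a median of 0.02. Recombination genes gave 0 of 12 by both tools, 1 under an unadjusted 0.05, and a median of 0.20, and the interleukin-7 receptor list gave 0 of 22 by both, 5 under an unadjusted 0.05, and a median of 0.11. Over all genes the median was 0.00. Ebf1 (0.28), Lef1 (0.31), Erg (0.34), Dntt (0.23), Kit (0.03) and Pax5 (0.14) had adjusted p-values by edgeR of 0.342 or more. Il7r stood at 164, 185 and 205 normalized CPM in control mice and at 185, 216 and 272 in anemic mice, a difference of 0.28 (adjusted p = 0.326, edgeR).

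Response programs gave few calls. S phase genes were below 0 in 26 of 28 genes, with a median of -0.18, 9 at an unadjusted p under 0.05 and 0 called by edgeR or DESeq2. Mitotic genes had a median of -0.02 over 24 genes with 0 under an unadjusted 0.05 and 0 called by either tool. Interferon response genes were above 0 in 24 of 25, with a median of 0.64, 7 at an unadjusted p under 0.05 and 0 called by edgeR or DESeq2, the latter giving no adjusted p for any of them. Rsad2, an antiviral enzyme of that list, stood at 1.24, 1.75 and 4.39 normalized CPM in control mice and at 3.55, 14.4 and 27.7 in anemic mice, a log2 difference of 2.49 ± 0.52 (adjusted p = 0.0610, edgeR). Of 27 hypoxia and glycolysis genes 1 passed (Bnip3) and 20 were above 0, with a median of 0.19 and 10 at an unadjusted p under 0.05. Glucocorticoid response genes were above 0 in 12 of 13, with a median of 0.13, 4 under an unadjusted 0.05 and 0 called by either tool. Survival genes had a median of -0.02 (15 tested), immediate early genes -0.01 (17), iron genes -0.05 (15), later B-cell genes -0.01 (13) and fetal-type genes -0.13 (6), with 0 called by edgeR or DESeq2 and 1, 3, 2, 1 and 1 genes at an unadjusted p under 0.05. In these 5 lists DESeq2 gave no adjusted p for 14, 12, 11, 11 and 4 genes, nor for 8 S phase, 7 mitotic and 7 glucocorticoid response genes, so that its counts of 0 say little. Of the genes that the study names for B cells, 7 could be tested, all below 0 with a median of -0.88, and Cyp2e1 passed. That list was chosen on these samples and is no independent evidence of its direction.

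Dividing and non-dividing progenitors were compared for their response to anemia by the interaction of group and population. Of 9081 genes tested 7 passed (0.0771%), with a more positive difference in dividing cells in 6 (0.0661%) and a more negative one in 1 (0.011%), and 572 had an unadjusted p under 0.05. The positive ones were Cstdc5, S100a8, S100a9, Retnlg, Pecam1 and Eln, of which S100a8, S100a9 and Retnlg are neutrophil genes. Summed neutrophil markers in dividing progenitors ran from 27.5 to 306 CPM in control mice and from 39.8 to 705 in anemic mice, and in non-dividing progenitors from 50.8 to 302 and from 44.4 to 191. Without anemia 2 the count was 0, without anemia 3 it was 3 and without control 2 or control 6 it was 4, and DESeq2 called 0 genes with 287 at an unadjusted p under 0.05. Mt1, a metallothionein, was the negative one (-1.58 on the log2 scale, adjusted p = 0.00848, edgeR).

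The response of dividing progenitors was also compared with that of dividing pre-B cells without surrogate light chain, a test added after the data were seen. Of 10352 genes 27 passed (0.261%), 14 with a more positive difference in progenitors (0.135%) and 13 with a more negative one (0.126%), and 1038 had an unadjusted p under 0.05. The count was 93 without anemia 1 and 42 without anemia 6 or control 2, but 14 without control 3 and 10 without anemia 3. Of the 27 tested genes of the hypoxia and glycolysis list 3 were among the negative ones (the enzymes Ldha, Aldoa and Gapdh) and none was among the positive ones, with a median of -0.20 for the list. Ldha stood at 966, 1126 and 1325 normalized CPM in control progenitors and at 857, 1204 and 1568 in anemic ones. In dividing pre-B cells it stood at 258, 284 and 324 in control mice and at 334, 457 and 527 in anemic mice, all 6 of them above the controls. In all other barcodes Ldha ran from 447 to 584 CPM in control mice and from 581 to 958 in anemic mice, with 5 of 6 above every control. The summed erythroid markers in dividing pre-B cells were 643 to 9649 CPM in control mice and 6000 to 25656 in anemic mice, and their part and that of free RNA in the Ldha values was not tested. The 2 differences themselves differed by -0.57 ± 0.10 on the log2 scale (adjusted p = 0.00763, edgeR).

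Aldoa, aldolase, went the same way, at 514, 544 and 607 against 507, 737 and 912 normalized CPM in progenitors and at 162, 231 and 252 against 281, 438 and 535 in pre-B cells. The difference of differences was -0.56 ± 0.11 (adjusted p = 0.0239, edgeR). Gapdh stood at 3607, 3938 and 4672 against 3258, 3954 and 4538 in progenitors and at 1484, 1682 and 1866 against 1606, 2083 and 2505 in pre-B cells (-0.33 ± 0.07, adjusted p = 0.0307, edgeR). In all 3 genes the median of anemic pre-B cells lay closer to the progenitor level than that of control pre-B cells and stayed below it. Mif (-0.47, adjusted p = 0.0755, edgeR) and Pdk1 (-0.98, adjusted p = 0.200, edgeR) did not pass. Bnip3 had the higher median in anemic mice in both populations, at 25.6, 31.3 and 42.4 against 34.0, 56.8 and 72.2 in progenitors and at 27.6, 36.2 and 50.0 against 46.0, 77.6 and 110 in pre-B cells, and the difference between them was -0.20 (adjusted p = 0.788, edgeR).

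A few further named genes passed this test. Mt1 stood at 51.7, 65.5 and 90.0 against 42.3, 87.7 and 131 normalized CPM in progenitors and at 12.5, 21.4 and 31.3 against 32.5, 67.9 and 121 in pre-B cells, a difference of differences of -1.53 (adjusted p = 0.0137, edgeR). Car2, a carbonic anhydrase among the erythroid markers, differed by -1.63 (adjusted p = 0.00763, edgeR). Pim1 went the opposite way (0.47, adjusted p = 0.0243, edgeR), at 363, 399 and 480 against 323, 449 and 658 in progenitors and at 1384, 1766 and 1873 against 942, 1426 and 1564 in pre-B cells. Ldha passed under every alternative run for this test, as did Mt1 and Car2 except with DESeq2, which gave them no adjusted p, and Aldoa failed in 4, Gapdh in 7 and Pim1 in 2 of them. The comparison rests on dividing pre-B cells, whose share of the B lineage also differed between the groups.

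**Figure D5:**
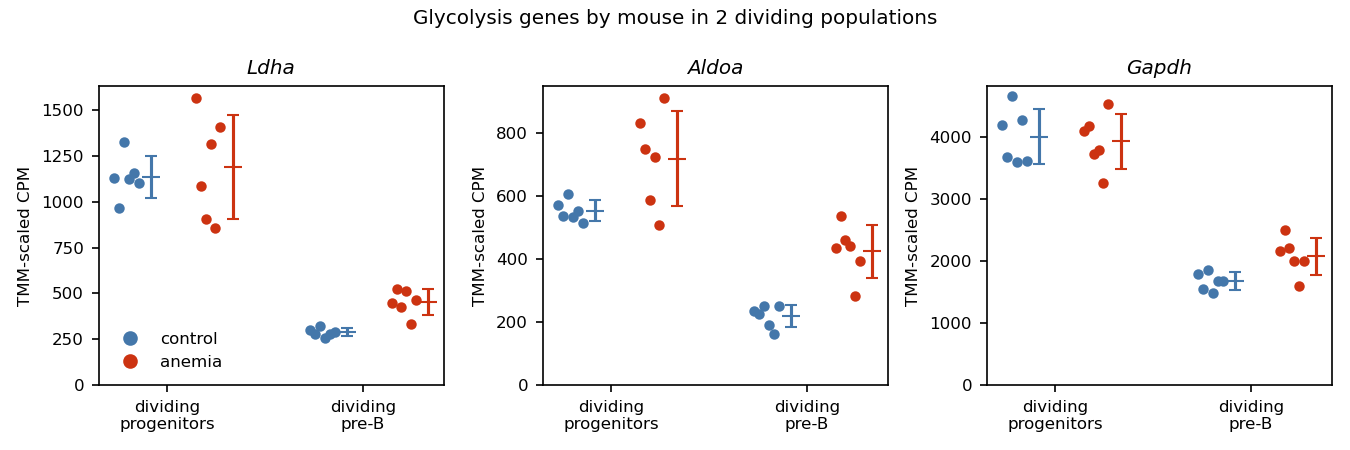
Normalized CPM of Ldha, Aldoa and Gapdh in dividing progenitors and in dividing pre-B cells without surrogate light chain, by mouse, with the mean and SD of 6 control and 6 anemic mice. For Ldha the anemic pre-B values (334 to 527) lie above the control ones (258 to 324) while the progenitor groups overlap.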

How the data were processed

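Single-cell RNA was measured in 12 livers. The authors aligned the reads to mm10 with Cell Ranger (7.0.0 per the file headers) and deposited filtered matrices of UMI counts, whole numbers for 32285 genes, with no cell annotation. The labels and the methods name different versions of the 10x kit.

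Members and lists were chosen with earlier results of these data known. UMI counts were summed per mouse, and 86 ribosomal protein genes, 13 mitochondrial genes and genes with a mean under 5 UMIs were dropped. Sums were tested with edgeR 4.0.16 in R 4.3.3 (quasi-likelihood, TMM factors, Benjamini-Hochberg over all tested genes). Shares were compared with exact Mann-Whitney or sign-flip tests over mice (SciPy 1.17.1). DESeq2 1.42.0 and limma 3.58.1 were alternatives, with other filters, scalings and limits, stricter members and each mouse left out. Some alternatives were chosen after seeing the data: shares without any exclusion marker, the ratios to other B-lineage stages, and the interaction with dividing pre-B cells.

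The text names genes of the fixed lists and the called genes of largest fold change, at most 10 in each direction of a comparison, that reached 10 CPM in either group and did not overlap between groups or moved the same way in all 12 mice. Called genes outside this rule (Alas2, Bnip3, Tent5c, Hbb-bt and Apoc3 in the anemia comparison) were named after their values were seen. Some genes counted in the totals are not reported here. Doublets were limited by the exclusion markers, and no caller was run. Libraries of 46252146 to 74545930 UMIs gave 354018 to 2272291 UMIs per mouse in progenitors. In simulated counts with 200 changed genes, the anemia fit recovered 99 of 100 changes of 2 and 72 of 100 changes of 1 on the log2 scale, with 7 false calls. For changes of 1, the interaction of dividing and non-dividing progenitors recovered 45 of 100 and that with dividing pre-B cells 67 of 100. These counts were drawn from the spread that edgeR itself had fitted, without free RNA or a mouse that stands apart, so recovery in the data can be lower. Replicates are separate mice. Two-sided tests were used throughout.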

Additional observations from a re-analysis of the deposited data

Results flagged for a closer look

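In the 6 control mice, Gm11808 stood at 533.9 normalized CPM in the progenitors of control 3, with a gap to the next control mouse of 0.647 of the group's range. Of 36 groups of mice checked in this way 1 stood out, and chance alone marks about 1 in 20.

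The effect of anemia differed between dividing and non-dividing progenitors by a tested interaction in 7 genes. The difference, dividing minus non-dividing on the log2 scale, was 3.83 for Cstdc5, 2.88 for S100a8, 4.22 for Retnlg, 2.49 for S100a9, 0.56 for Pecam1, 4.36 for Eln and -1.58 for Mt1. None passed without anemia 2.

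The effect also differed between dividing progenitors and dividing pre-B cells without surrogate light chain in the following named genes. The difference, progenitors minus pre-B cells on the log2 scale, was -1.63 for Car2, -0.57 for Ldha, -1.53 for Mt1, -0.56 for Aldoa, 0.47 for Pim1 and -0.33 for Gapdh.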

How the results depend on the processing

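The share of progenitors among all barcodes differed by -0.81 percentage points (exact p = 0.0152) and stayed under an unadjusted 0.05 with other UMI minimums, mitochondrial limits and exclusion markers. It was -0.461 (exact p = 0.180) after thinning, and the difference ran from -0.949 to -0.613 with 1 mouse left out. The share of B-lineage barcodes, 0.011 percentage points apart, turned to -0.098 with at least 5 surrogate light chain UMIs, to -0.00642 with up to 50% mitochondrial UMIs, to -0.447 with stricter members, to -0.109 with 1 Cd79 UMI and ran from -0.665 to 1.03 with 1 mouse left out, while thinning gave 1.23. Dividing cells among thinned progenitors differed by -5.48 percentage points, by -8.10 (exact p = 0.0411) with stricter members and from -6.94 to -4.42 with 1 mouse left out. Without thinning, progenitors with no Top2a or Mki67 UMI made up 37.8% to 50.8% in control mice. In anemic mice they made up 38.9% to 58.7%, so that the groups overlapped. Median UMIs differed by -212, by 136 in non-dividing progenitors and from -390 to 6.52 with 1 mouse left out. The number per 100 dividing pre-B cells differed by 27.6, from 17.4 to 32.9, and the Dntt share by 0.423, from -0.344 to 1.29. The causes were not tested.

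The 11 genes of the anemia comparison became 27 with DESeq2 (2 shared, with no adjusted p for 9 of the 11), 140 without a filter on low counts and 4 to 25 with 1 mouse left out, and Fabp4 passed under every edgeR setting, as did Alas2 except with stricter members, whose choice removed barcodes with an Alas2 UMI. The 7 genes of the interaction of dividing and non-dividing progenitors became 0 with DESeq2, 16 without a filter, 2 with stricter members and 0 to 10 with 1 mouse left out. The 27 genes of the interaction with pre-B cells became 45, 168 and 65 in the same settings and 10 to 93 with 1 mouse left out (93 without anemia 1, 10 without anemia 3). The comparisons of populations called 2663 to 2898 and 6262 to 6658 genes with 1 mouse left out. Replicate numbers are shared between the groups, and the main tests treated the mice as unpaired. Of 6 pairs 3 correlated above 0.1, and 2 of 6 control mice matched their own number best. So few pairs cannot decide whether mice with the same number were paired. With the replicate block 35 genes were called, which held all 11, the p for the share among all barcodes was 0.0625 (-0.81) and that for the ratio to dividing pre-B cells 0.0938 (27.6). None of the 4 calls among the 6 ratios added after the data were seen passed an adjusted 0.05 with the block, where 6 pairs allow no exact p under 0.0312. The B-lineage (-6.28), dividing pre-B (-4.60) and Ighd-positive (2.72) shares each had an adjusted 0.0625 there. Of 225 checks of the main results 170 kept their verdict. Among those that did not, 16 changed sign, 13 were weaker and 2 stronger. On single genes 1004 of 1101 checks kept their verdict, the other 97 losing significance without a change of sign. Progenitor numbers as low as 80 limit anemia 2.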
